A study of Caenorhabditis elegans with 2 samples.

Results

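The genes described here are 10 heat shock and chaperone genes of Caenorhabditis elegans, out of 19973 protein-coding genes on the nuclear chromosomes. They are the HSP70 genes hsp-1, hsp-3, hsp-4, hsp-6, F44E5.4 and F44E5.5, the chaperonin gene hsp-60, and hsp-16.1, hsp-16.2 and hsp-16.41 for small heat shock proteins. All 10 were found in the annotation. For each gene, every ChIP-seq summit in the gene and 2 kb either side was taken from peak lists of CHD-7, a chromodomain helicase that remodels chromatin and is the worm counterpart of vertebrate CHD7. The genes were chosen by their function and with the signals and ranks of these same lists in view. Their signals, ranks and distances are therefore given as a description, without a test.

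The worms were strain OP609, genotype unc-119(tm4063) III; wgIs609. They carried CHD-7 with GFP and FLAG at its C terminus from a stably expressed transgene, and the fusion was precipitated from sonicated chromatin with anti-GFP. Whole young adults of both sexes were pooled 67 hours after they had been synchronised as starved first-stage larvae, in 2 biological replicates. There was a single group, no heat treatment is named, and summits from different tissues of the whole animal cannot be told apart. A reproducible list of 1884 peaks from both replicates and a pooled list of 30000 candidates, which includes background, were used on the ce11 build. The reproducible peaks were exactly the 1884 pooled entries of highest signal, between 166 and 5232. The lists hold no read counts, so depth is unknown. Signal is the authors' value per peak and has no stated scale, so that peaks are compared by rank within a list, rank 1 being the highest.

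Chaperones bind unfolded proteins and help them to fold. HSP70 proteins and chaperonins of the cytosol, endoplasmic reticulum and mitochondria are made in unstressed cells, whereas the hsp-16 genes and some HSP70 genes are nearly silent until heat or another stress activates heat shock factor, HSF-1. HSF-1 binds heat shock elements, which are alternating copies of GAA and TTC set apart by a pair of bases. F44E5.4, F44E5.5, hsp-16.1, hsp-16.2 and hsp-16.41 are taken here as heat-inducible. hsp-1, hsp-3, hsp-4, hsp-6 and hsp-60 are taken as constitutive, although hsp-4 is also induced by unfolded protein in the endoplasmic reticulum and hsp-6 and hsp-60 by unfolded protein in mitochondria.

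Upstream sequences are shown because the 4 highest summits of these genes lie before a gene start, some of them between divergent genes. All are ce11 reference sequence from RefSeq, written 5′ to 3′ and ended at an annotated 5′ end where they reach one. Capitals mark heat shock element pairs, that is GAANNTTC or TTCNNGAA, except for hsp-3, where they mark TGACGTG, the core of an element of the unfolded protein response. Each pair is its own reverse complement, and adjoining pairs overlap by 3 bases. The F44E5.4 and F44E5.5 stretch, chrII:11759347-11759597 (plus strand), has the summit at base 126. The stretch between hsp-16.2 and hsp-16.41 is chrV:1804958-1805177 (plus strand), whole, with the summit at base 187. The 250 bp before hsp-16.1, chrV:9087783-9088032 (minus strand), hold no candidate. For hsp-60 and its divergent neighbour Y22D7AL.10, chrIII:1619023-1619223 (plus strand) has the summit at base 101. For hsp-1, chrIV:17278428-17278628 (plus strand) has the summit at base 101. For hsp-3, chrX:6092125-6092281 (minus strand, in gene direction) has the summit at base 101.
F44E5.4 and F44E5.5: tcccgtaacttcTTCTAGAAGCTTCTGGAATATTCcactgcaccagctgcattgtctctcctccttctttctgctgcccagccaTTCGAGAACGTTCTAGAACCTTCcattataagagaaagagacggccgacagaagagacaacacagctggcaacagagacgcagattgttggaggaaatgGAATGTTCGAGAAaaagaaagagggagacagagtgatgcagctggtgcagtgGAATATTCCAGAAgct
hsp-16.2 and hsp-16.41: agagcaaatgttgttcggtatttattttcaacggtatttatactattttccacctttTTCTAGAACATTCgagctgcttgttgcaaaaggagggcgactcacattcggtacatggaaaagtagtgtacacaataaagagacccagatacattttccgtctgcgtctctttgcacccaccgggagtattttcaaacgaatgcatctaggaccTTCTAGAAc
hsp-16.1: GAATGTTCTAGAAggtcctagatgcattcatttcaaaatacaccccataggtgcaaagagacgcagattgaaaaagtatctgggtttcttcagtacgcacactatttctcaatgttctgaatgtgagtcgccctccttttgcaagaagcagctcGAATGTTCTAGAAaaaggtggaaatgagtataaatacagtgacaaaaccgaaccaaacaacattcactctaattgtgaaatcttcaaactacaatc
hsp-60 and Y22D7AL.10: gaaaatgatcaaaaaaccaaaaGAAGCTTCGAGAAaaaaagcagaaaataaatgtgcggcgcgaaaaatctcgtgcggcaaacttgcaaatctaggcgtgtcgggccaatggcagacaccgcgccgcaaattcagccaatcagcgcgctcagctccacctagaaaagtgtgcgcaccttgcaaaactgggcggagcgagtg
hsp-1: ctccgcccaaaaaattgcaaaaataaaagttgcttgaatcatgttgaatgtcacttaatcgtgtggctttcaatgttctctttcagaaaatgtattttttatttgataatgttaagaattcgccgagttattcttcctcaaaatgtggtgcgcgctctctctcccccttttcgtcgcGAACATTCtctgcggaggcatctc
hsp-3: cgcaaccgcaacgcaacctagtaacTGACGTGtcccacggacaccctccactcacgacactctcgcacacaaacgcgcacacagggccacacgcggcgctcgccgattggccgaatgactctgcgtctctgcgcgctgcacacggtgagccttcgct

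Of the 10 genes, 8 had at least 1 reproducible summit in the gene or 2 kb either side, 4 of 5 heat-inducible and 4 of 5 constitutive. Over all 19973 protein-coding genes the share was 12.12% (95% Wilson interval 11.67% to 12.58%). The exceptions were hsp-16.1 and hsp-4. In the promoter window, from 1000 bp before to 200 bp after the 5′ end, 7 of the 10 had a reproducible summit, 4 heat-inducible and 3 constitutive, beside 4.18% of all genes. Candidates of the pooled list were near all 10, but also near 67.2% of all genes. Because the genes were chosen with these lists known, the counts are not read as a result against those shares.

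The 8 genes rested on 8 distinct summits. Only 2 of them served the heat-inducible genes, each shared by a divergent pair, and 6 served the constitutive genes. All 8 lay between genes, the nearest gene for a tRNA, rRNA, snRNA or snoRNA was more than 100 bp away from each, and all 8 were at the highest −log10 q of the list, 3.43, as were 1350 of the 1884. Another 34 pooled candidates near the 10 genes were not reproducible, and 17 of those lay in coding exons.

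**Figure D1:**
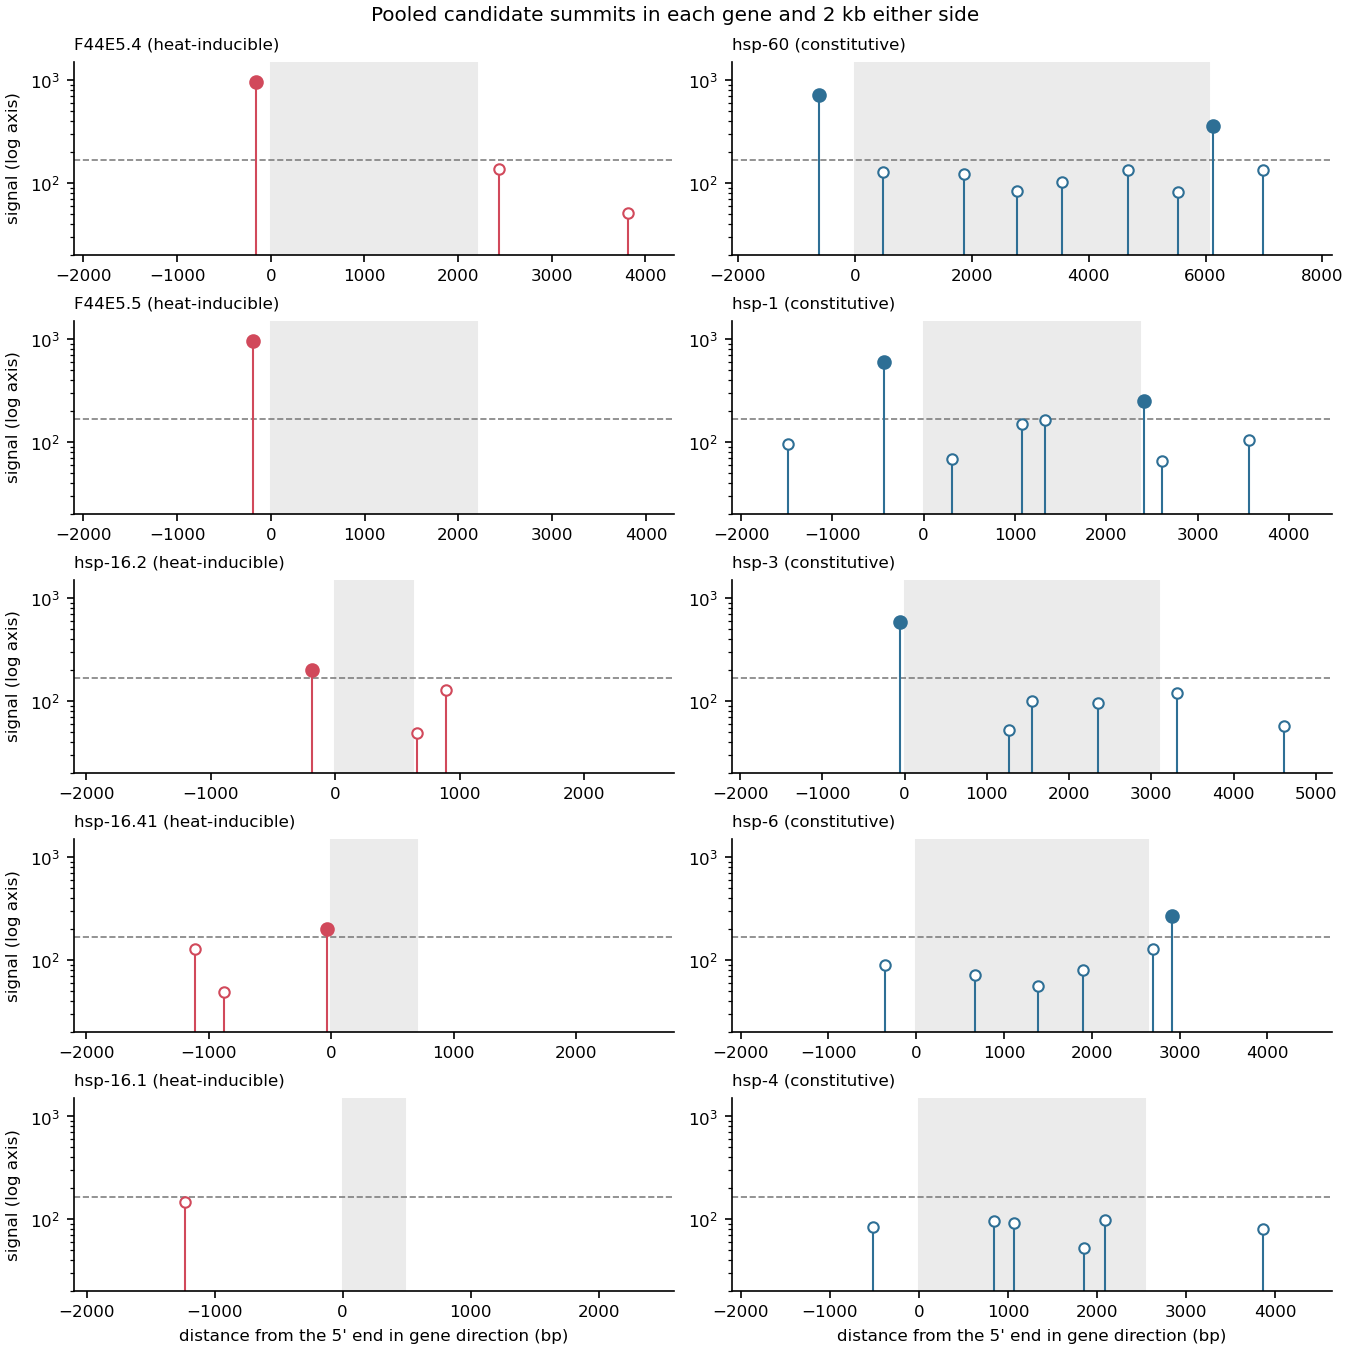
Signal of every pooled candidate summit (log axis) by its distance from the annotated 5′ end, in gene direction, for 5 heat-inducible genes (left) and 5 constitutive genes (right). Filled points are reproducible, open points are not, the grey band is the gene and the dashed line is the lowest signal of the reproducible list, 166. The highest summit lies before the gene for all but hsp-6 and hsp-4.

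Among heat-inducible genes, the highest summit lay between F44E5.4 and F44E5.5, which code for near-identical HSP70 proteins and point away from each other. Its interval was chrII:11759307-11759637, with a signal of 962 and rank 14 of the pooled list. It ranked 14 in replicate 1, with a signal of 469, and 10 in replicate 2, with a signal of 503. The replicate summits were 15 bp apart, so both libraries placed it high and at the same site. The 5′ ends are 350 bp apart, and the summit lay 161 bp before F44E5.4 and 190 bp before F44E5.5. One summit thus served both genes, and it cannot be assigned to either.

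hsp-16.2 and hsp-16.41, both for small heat shock proteins, also share a divergent stretch, of 220 bp. HSP-16 proteins hold unfolding proteins in solution. Their single reproducible summit, chrV:1804949-1805338, had a signal of 199 and rank 1157. It ranked 1610 in replicate 1 and 1326 in replicate 2, with both replicate summits at the same base. The summit lay 187 bp before hsp-16.2 and 34 bp before hsp-16.41. It was in the lower-ranked part of the reproducible list in contrast to F44E5.4 and F44E5.5.

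hsp-16.1 had no reproducible summit and a single pooled candidate, chrV:9088819-9089208, with a signal of 146 and rank 2563. That candidate ranked 18759 in replicate 1 and 1046 in replicate 2, so the rank was high in 1 library only. It lay 1232 bp before the 5′ end of hsp-16.1, beyond hsp-16.48, between the facing 3′ ends of hsp-16.48 and hsp-16.49. hsp-16.1 and hsp-16.48 form 1 arm of an inverted repeat, and hsp-16.11 and hsp-16.49 the other. The 348 bp between hsp-16.1 and hsp-16.48 and the 310 bp between hsp-16.11 and hsp-16.49 held 0 candidates each.

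These copies bear on what a peak list can hold. Of the 50-mers between hsp-16.1 and hsp-16.48, 0% occurred once in the genome, and likewise 0% in the gene hsp-16.1 and 0% between hsp-16.49 and hsp-16.11. The share was 98.8% in the candidate interval between the arms, 100% between hsp-16.2 and hsp-16.41, and 93.5% over the whole genome. F44E5.4 and F44E5.5 were 99.2% identical over an alignment of 2210 bp, and only 1.86% and 2.09% of their 50-mers occurred once. The stretch between them reached 98.3%. At both loci the listed summits lay in sequence found once, and none lay in the copied parts. The read length and the handling of reads that match several places are not given here, and the part of copied sequence in the missing hsp-16.1 peak was not tested. With 36-mers the shares were 0% for the hsp-16.1 stretch and 86.7% for the F44E5.4 and F44E5.5 stretch.

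**Figure D2:**
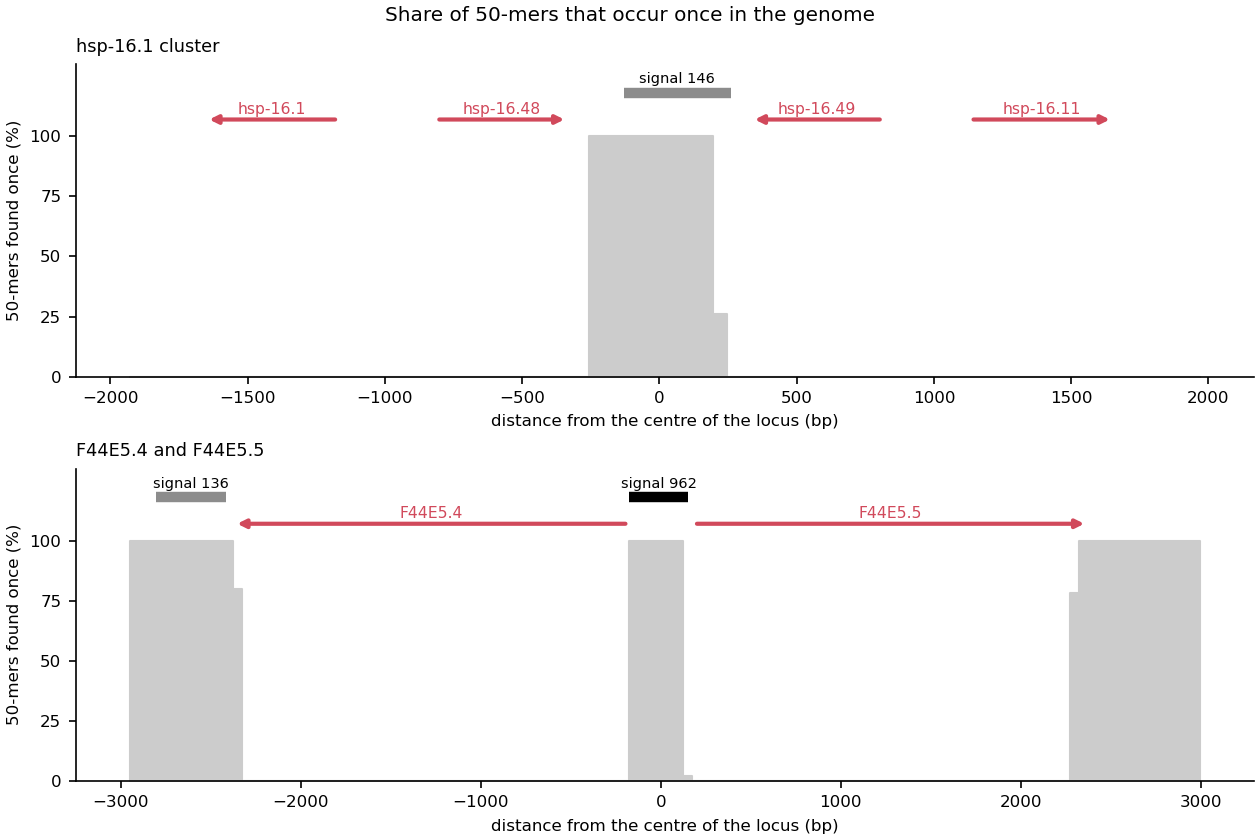
Share of 50-mers that occur once in the genome (vertical axis, in bins of 50 bp by the first base) along the hsp-16.1 cluster and the F44E5.4 and F44E5.5 locus, by distance from the centre of each locus. Arrows are genes in their direction, and bars above are pooled candidates with their signal, black where reproducible. The candidates, with signals of 146, 962 and 136, sit over the stretches with sequence of their own.

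Among constitutive genes, the highest summit belonged to hsp-60, which codes for the mitochondrial chaperonin. Its interval, chrIII:1618998-1619255, had a signal of 721 and rank 38. It ranked 50 in replicate 1 and 36 in replicate 2, with replicate summits 2 bp apart. The summit lay 619 bp before hsp-60 but 194 bp before Y22D7AL.10, the divergent gene for the HSP10 partner of the chaperonin, whose 5′ end is 812 bp from that of hsp-60. It was thus shared by a chaperonin and its co-chaperonin and was nearer to Y22D7AL.10.

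hsp-1, which codes for the main cytosolic HSP70, had a summit at chrIV:17278347-17278706 with a signal of 605 and rank 61. It ranked 104 in replicate 1 and 43 in replicate 2. The summit lay 431 bp before hsp-1 and 26 bp past the non-coding RNA gene F26D10.23, a gene at 17278413 to 17278502 on the same strand that the printed hsp-1 stretch partly covers. hsp-3, which codes for an HSP70 of the endoplasmic reticulum, had its summit at chrX:6092072-6092278, with a signal of 589 and rank 68. That summit ranked 53 in replicate 1 and 95 in replicate 2, and lay 57 bp before hsp-3 with no other gene start within 1000 bp. All 3 of these upstream peaks ranked within the 104 highest of each replicate list.

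hsp-4, the other HSP70 of the endoplasmic reticulum and a standard reporter of its unfolded protein response, stood apart from hsp-3. Its highest candidate had a signal of 97.9 and rank 7736 and lay in a coding exon, 2085 bp past the 5′ end. Its only promoter candidate, 512 bp before the gene, had a signal of 83.3 and rank 11644 and overlapped an entry of replicate 1 only. All 6 of its candidates were under the lowest reproducible signal of 166. Within the gene itself, 100% of the 50-mers occurred once, a share that was not computed for the flanks. Why hsp-4 had no reproducible summit was not tested. hsp-6, the mitochondrial HSP70, likewise had only a weak promoter candidate, with a signal of 89.1 and rank 9890, 355 bp before the gene. That candidate lay in an exon of non-coding RNA genes and overlapped an entry of replicate 2 only.

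The reproducible summit of hsp-6 lay past its 3′ end. The interval chrV:4823756-4823933 had a signal of 268 and rank 586, and its summit was 274 bp past hsp-6 and 427 bp before adss-1, a gene for adenylosuccinate synthetase. It ranked 395 in replicate 1 and 218 in replicate 2. The replicate summits were 261 bp apart, replicate 1 nearer to adss-1 and replicate 2 nearer to hsp-6. The replicate 2 entry also overlapped a pooled candidate that was not reproducible (signal 127, rank 3812), 57 bp past hsp-6. Its summit was 60 bp from that candidate and 157 bp from the reproducible summit. Replicate 1 had no entry at that candidate. A gap of 200 bp or more was seen for 33 of the 1831 reproducible peaks met by both replicate lists (1.80%), and the median gap was 30 bp. Whether the replicate entries mark the same site was not tested. The site of this peak was thus less settled than that of the other members' promoter peaks, and its rank of 218 may belong to the neighbouring candidate.

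hsp-60 and hsp-1 each had a second reproducible summit just past the 3′ end. For hsp-60 it was chrIII:1625793-1625982, with a signal of 359 and rank 280, 75 bp past the gene and 754 bp before Y22D7AL.4. It ranked 214 in replicate 1 and 429 in replicate 2. For hsp-1 it was chrIV:17281215-17281574, with a signal of 252 and rank 675, 44 bp past hsp-1 and 81 bp past the 3′ end of the facing gene nra-1. That interval ranked 200 in replicate 2. Replicate 1 had a pair of weaker entries there, at ranks 4348 and 5482, so the peak rested mainly on replicate 2. The entry of rank 4348 had its summit 221 bp from this one. It was 21 bp from a pooled candidate that was not reproducible (signal 65.6, rank 19201). The entry of rank 5482 was 40 bp from this summit. A fold between replicate ranks of 10 or more was seen for 64 of the 1831 peaks (3.50%). For this interval the fold, taken with the rank of 4348, was 21.7 against a median of 1.89.

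A reproducible summit 1 to 500 bp past the 3′ end was present for 0 of 5 heat-inducible and 3 of 5 constitutive genes, hsp-1, hsp-6 and hsp-60, beside 2.76% of all protein-coding genes. This window was set after these summits had been seen. For hsp-60 and hsp-6 it is also the upstream region of the next gene, and the share of each gene in the signal cannot be told apart.

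**Figure D3:**
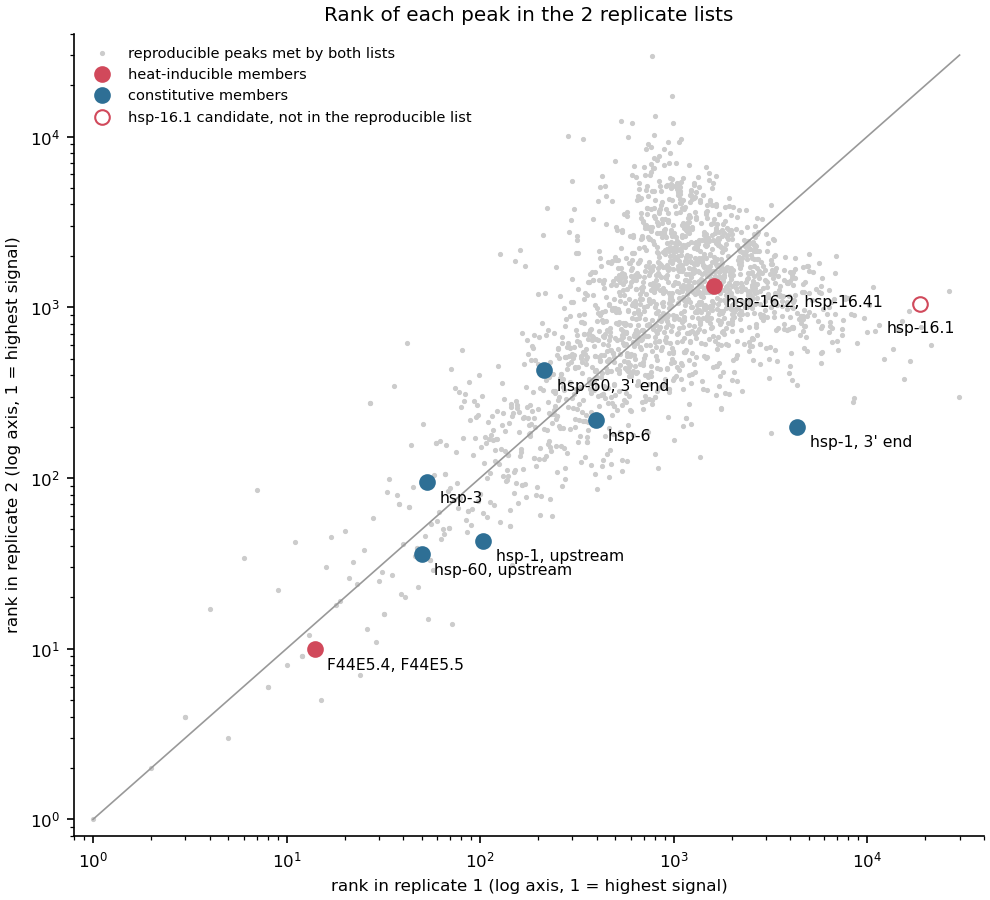
Rank of each reproducible peak in replicate 1 (horizontal) and replicate 2 (vertical), both on log axes, with 1 as the highest signal. Grey points are the 1831 peaks met by both lists, red points the heat-inducible genes, blue points the constitutive genes, and the line marks equal ranks. The upstream peaks and the peaks past the 3′ ends of hsp-6 and hsp-60 lie near the line. For hsp-6 the replicate summits were 261 bp apart, so its ranks may come from different sites. The hsp-1 peak past the 3′ end (4348 and 200) and the hsp-16.1 candidate (18759 and 1046) lie far below it.

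Set side by side, the highest summit of each gene had a median rank of 1157 in the 5 heat-inducible genes, with a range of 14 to 2563, and a median of 68.0 in the 5 constitutive genes, with a range of 38 to 7736. The ranges overlap, and the heat-inducible values come from 3 distinct summits. For each replicate, the rank of the entry overlapping the same summit was taken. Median ranks in replicate 1 were 1610 (14 to 18759) in the heat-inducible and 104 (50 to 12999) in the constitutive genes. In replicate 2 the medians were 1046 (10 to 1326) in the heat-inducible and 95 (36 to 8806) in the constitutive genes. Across the 13427 protein-coding genes with a candidate the median was 7121. Of those genes, 0.149% had a higher summit than F44E5.4, 0.447% than hsp-60, 0.737% than hsp-1, 0.834% than hsp-3, 6.38% than hsp-6, 11.7% than hsp-16.2, 23.2% than hsp-16.1 and 52.8% than hsp-4. In this order, hsp-16.2 and hsp-16.41 have the same summit, as do F44E5.4 and F44E5.5, and the upstream summits of hsp-1 and hsp-3 change places between replicates. The place of hsp-16.1 held in neither replicate: its candidate ranked 18759 in replicate 1, below the 12999 of hsp-4, and 1046 in replicate 2, above the 1326 of hsp-16.2. The hsp-4 entry of rank 12999 had its summit 239 bp from the highest hsp-4 candidate. It was 1 bp from another hsp-4 candidate, of pooled rank 27369. Heat-inducible genes had a median of 3 candidates in windows of 4698 bp, against 6 candidates in windows of 6637 bp for constitutive genes. A longer window can hold more candidates.

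**Figure D4:**
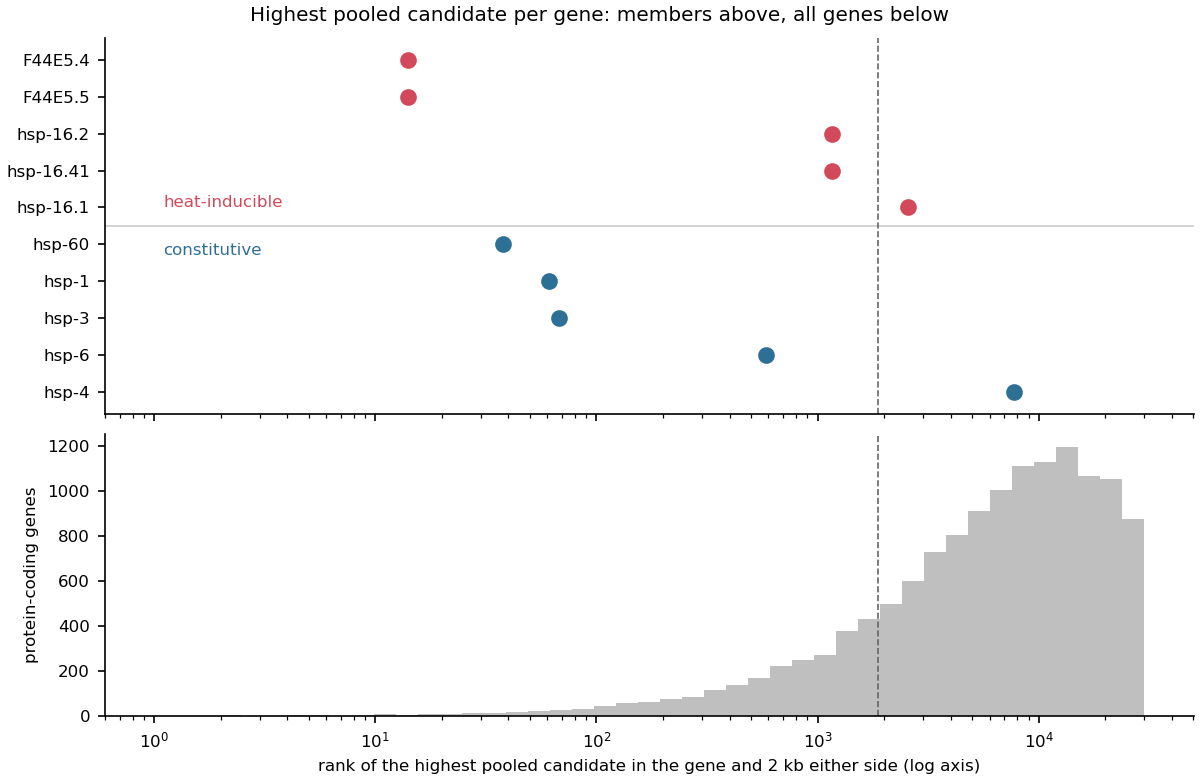
Rank of the highest pooled candidate in each gene and 2 kb either side, on a log axis with 1 as the highest signal. Points above are the 5 heat-inducible and 5 constitutive genes, bars below count the 13427 protein-coding genes with a candidate, and the dashed line is rank 1884, the end of the reproducible list. Only hsp-16.1 and hsp-4 lie right of it.

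Of the members' reproducible summits, the one nearest to the end of the list was that of hsp-16.2 and hsp-16.41 (signal 199, rank 1157). Just outside, with the list ending at 166, were a candidate in a coding exon of hsp-1 (163, rank 1961), one in an intron of hsp-1 that lay 12 bp from the snoRNA gene F26D10.24 (151, rank 2338), the hsp-16.1 candidate (146) and one past F44E5.4 inside the non-coding RNA gene F44E5.16 (136, rank 3141).

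Heat shock elements before the genes were counted by class as a description. The classes were set by heat induction, which works through these elements, so a difference between them is not an independent result. All 5 heat-inducible genes had a run of 3 or more units (GAA and TTC in turn, on either strand) in the 300 bp before the 5′ end, against 1 of 5 constitutive genes, hsp-1. The share over all 19973 genes was 1.92%. A single pair occurred before all 5 heat-inducible genes and before hsp-1 and hsp-4, beside 32.0% of all genes. TATAAA, read on both strands, occurred before all 5 heat-inducible genes and before hsp-3 and hsp-60, beside 39.6%. TGACGTG, read on both strands, occurred before no heat-inducible gene and before hsp-3 and hsp-4, beside 2.82%. A match of letters shows no binding, and the divergent pairs share their matches in part.

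The elements lay beside the summits in the heat-inducible pairs. Between F44E5.4 and F44E5.5 there were 4 runs, of 5, 5, 3 and 5 units, and the printed stretch holds 3 of them whole and the start of the fourth. The nearest began 41 bp before the summit and ended 19 bp before it, counted along the plus strand. Between hsp-16.2 and hsp-16.41 there was a run of 3 units 58 to 70 bp from hsp-16.2, and another whose first pair ends the printed stretch and whose last unit reaches into the annotated start of hsp-16.41. That second run began 25 bp past the summit. The 348 bp before hsp-16.1 held 2 runs of 3 units, both in its printed stretch, and 0 candidates. Among constitutive genes, the hsp-60 summit had a run of 3 units that began 78 bp before it, between 116 and 128 bp from Y22D7AL.10. The run of 3 units before hsp-1, 132 to 144 bp from its 5′ end, lay outside the peak interval. The hsp-3 stretch had no pair, and its TGACGTG ended 126 bp before the gene.

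**Figure D5:**
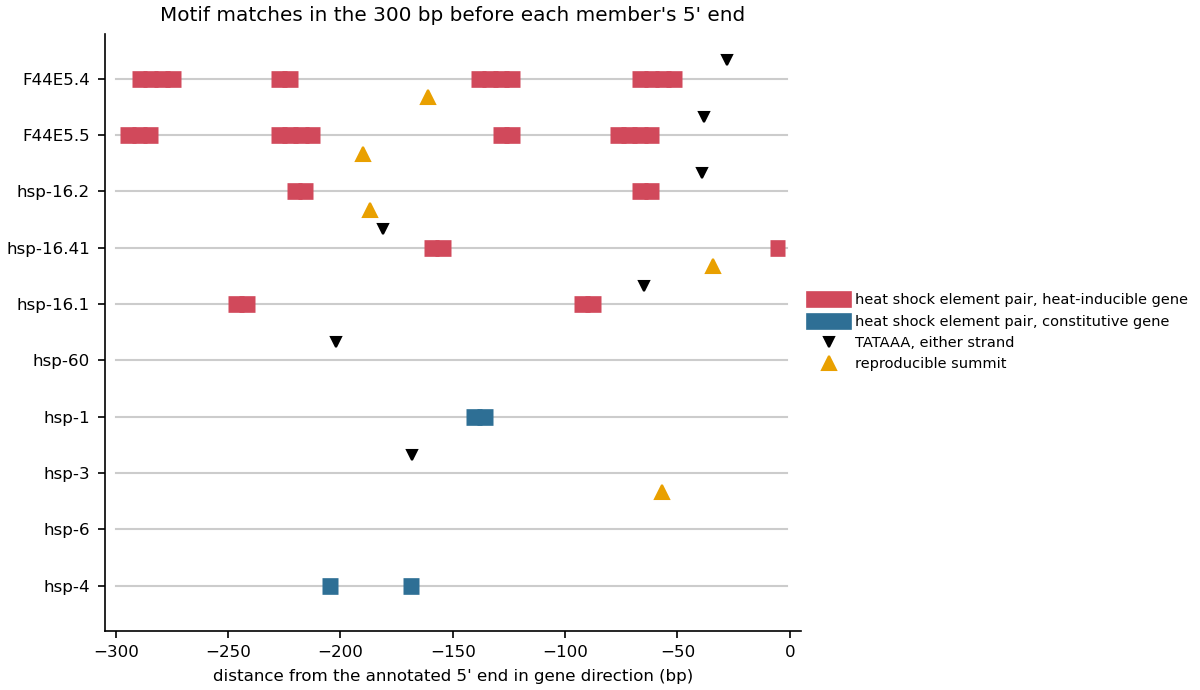
Matches in the 300 bp before the annotated 5′ end of each gene, in gene direction (bp): bars are heat shock element pairs (red heat-inducible, blue constitutive), black triangles TATAAA on either strand and yellow triangles reproducible summits. Joined bars are runs of 3 or more units, which all 5 heat-inducible genes and hsp-1 have.

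Within 100 bp of the summit, a pair was present at 5 of the 8 reproducible summits of these genes, both heat-inducible summits and 3 of the 6 constitutive ones, beside 15.3% of all 1884 reproducible summits and 20.8% of the 27707 pooled candidates that overlap none of them. A run of 3 units was present at 3 of the 8, those of F44E5.4 and F44E5.5, hsp-16.2 and hsp-16.41, and hsp-60, beside 1.43% and 0.906%. Within 50 bp, pairs remained at 2 of the 8, both heat-inducible, beside 6.85% of all reproducible summits. Most CHD-7 peaks thus had no such element. The share with a pair was lower at reproducible summits than at the other candidates, whereas the share with a run of 3 units was higher. Neither difference was tested. The member counts are not read as a result against these shares. Heat-inducible genes were classed by induction through these elements. Between F44E5.4 and F44E5.5 the runs reach from 48 to 293 bp of the 350 bp, so most positions there lie near a pair. The GC content of the 201 bp around the summit ran between 33.3% (hsp-6) and 62.7% (hsp-3), with a median of 46.3% over all reproducible summits.

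Wider sets of protein-folding genes and of stress response regulators were read from 8 lists with 80 matched genes besides the 10. Of the matched genes, 14 were stress response regulators, which are not folding machinery. Of the 80, 34 (42.5%) had a reproducible summit in the gene or 2 kb either side, 6 of them regulators, beside 12.12% of all genes. In the promoter window 22 (27.5%) had one, beside 4.18%. Past the 3′ end, 14 (17.5%) had one, beside 2.76%. The median rank of the highest candidate was 2344 over the 73 genes with one, against 7121 over all genes with one. Neighbouring genes can share a summit, and no test was made. The lists were chosen with earlier results of these data known, and the 3′ window was set after the members' summits had been seen. These counts are therefore not read as a result against the shares of all genes.

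By list, co-chaperones had the highest count, with 8 of 13. Among them were the HSP40 genes dnj-13 (signal 678, rank 46, 228 bp before the gene) and dnj-12 (539, rank 85, 709 bp past the gene). Another was unc-45 (453, rank 151), a myosin chaperone, whose summit lay 120 bp past the gene. Of endoplasmic reticulum chaperones 6 of 10 had one, led by calreticulin crt-1 (401), the HSP90 gene enpl-1 (307, 5 bp before the gene) and the disulphide isomerase pdi-2 (288). The cytosolic chaperonin and prefoldin list had 6 of 14. It was led by cct-8 (527, rank 92, 435 bp before the gene), cct-7 (432, 180 bp past the gene) and pfd-1 (236). Both of the highest belong to the ring-shaped chaperonin that folds actin and tubulin.

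HSP90 genes had 2 of 3, hsp-90 itself with a signal of 498 and rank 108 at 846 bp inside the gene, and enpl-1. The HSP70 and HSP110 list had 2 of 6, hsp-110 (443, rank 162, 103 bp past the gene) and T24H7.2 (217). hsp-70, which codes for a heat-inducible HSP70, had none, and its highest candidate had a signal of 137 and rank 3098. The mitochondrial list had 3 of 7, Y22D7AL.10 through the summit it shares with hsp-60 (721), the protease subunit gene clpp-1 (271) and C34C12.8 (193).

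Of the small heat shock genes, 2 of 14 (14.3%) had one, near the 12.12% of all genes. These were hsp-12.3 and hsp-12.6, which share their highest summit, of signal 247, which is in the promoter window of neither. hsp-16.11, hsp-16.48 and hsp-16.49, which lie in the copied cluster, had no reproducible summit and hold the same candidate as hsp-16.1. Of stress regulators, 6 of 14 had one, led by daf-16 (330), xbp-1 (305) and atfs-1 (303). They code for a forkhead factor of insulin signalling, a factor of the endoplasmic reticulum response and a factor of the mitochondrial response. The daf-16 summit lay inside the gene, 19434 bp from the 5′ end. Those of xbp-1 and atfs-1 lay 134 bp and 117 bp past the gene. The gene for heat shock factor itself, hsf-1, had none, with a highest candidate of signal 116 and rank 4859.

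The genes outside these lists whose promoter peak was most alike in replicate ranks to that of F44E5.4 (14 and 10) were H41C03.3 (12 and 9), egg-5 (13 and 12) and nhl-2 (10 and 8). Their distances in log10 rank over the 2 replicates were 0.0811, 0.0855 and 0.175. Those most alike to hsp-60 (50 and 36) were puf-9 (49 and 37), ain-1 (46 and 35) and kin-14 (55 and 33), at distances of 0.0148, 0.0382 and 0.0560.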

How the data were processed

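CHD-7 ChIP-seq peak lists of 2 biological replicates in 1 group were used. Per the file headers and notes the authors deposited, peaks and background were called on each replicate and on their pool against 1 control alignment, and the reproducible list was derived from these by the irreproducible discovery rate. No source used here names the caller, the aligner, their versions or the cutoff. The deposited signal column is the caller's value per peak and served for ranks inside each list. The deposited −log10 q values are tied at the top and were not used for ranks. The deposited offset gives the summit. The ce10 lists and the control experiment were not used. Depth is unknown.

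Positions were set against Ensembl release 115 (WBcel235, the same assembly as ce11) and the RefSeq sequence, with Python 3.11.15, pandas 2.3.3 and Biopython 1.88. Replicate entries were matched by an overlap of at least 1 bp, and the one of highest signal was kept. Wilson intervals cover the counting of genes only. A 50-mer occurs once if neither strand holds a further copy. The functions recovered known answers on simulated data.

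The genes, classes, lists and tests were chosen with earlier results of these data known, and no test of the genes was made. Named were the 10 genes, genes starting within 1000 bp of their reproducible summits, the 3 genes of highest reproducible signal of each list, hsf-1, hsp-90, hsp-70, hsp-16.11, hsp-16.48, hsp-16.49 and enpl-1, and the 3 most alike in replicate ranks to the highest gene of each class. F26D10.24, F44E5.16 and nra-1 were named after their values were seen. hsf-2 did not match a protein-coding gene.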

Additional observations from a re-analysis of the deposited data

How the results depend on the processing

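With no second group, nothing could be compared between conditions. No paired analysis was possible because there is a single group and no test. Of 60 recomputed counts and shares, 47 stayed within 1.5 times the value reported and 13 did not. From the 1884 highest entries of 1 replicate, the genes with a summit numbered 8 to 9, of which heat-inducible 4 to 5. hsp-16.1 was added from replicate 2 alone. Counting a summit only for the nearest protein-coding 5′ end left 4 genes (hsp-16.41, F44E5.4, hsp-1 and hsp-3), 2 heat-inducible and 2 constitutive, with 22 genes of the wider lists and 6.71% of all genes. The 942 higher-ranked reproducible peaks left 6 genes, 2 of them heat-inducible (F44E5.4 and F44E5.5), and 6.73% of all genes. Distinct summits numbered 2 for the heat-inducible genes. Flanks of 500 bp and 5 kb gave 7.92% and 19.2% of all genes, with the same 8 of the 10. Pairs of heat shock elements were at 2 member summits within 50 bp, and at 6.85% and 23.5% of all reproducible summits within 50 and 150 bp. Differences in window size account by construction for the shifts with flank and motif distance. The other shifts also follow by construction. The nearest 5′ end gives each summit to 1 gene, the 942 peaks leave out rank 1157, and a shared summit counts once among distinct summits. Unknown depth limits what can be said of candidates near the end of the list. The 3′ window and the 36-mers were chosen after seeing the data.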
